A study of Mus musculus musculus x Mus musculus castaneus with 12 samples.

Results

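The genes described here are 10 regulators of mesendoderm and the primitive streak, *Eomes*, *T*, *Mixl1*, *Gsc*, *Mesp1*, *Evx1*, *Wnt3*, *Cer1*, *Lhx1* and *Fgf8*, taken by gene symbol from the 24346 genes measured in F1 hybrid mouse embryonic stem (ES) cells. RNA-seq was done on 12 samples of undifferentiated ES cells, so the values are basal levels and not those of differentiating cells. The male BC cells came from a BL6 mother and a *cast* father, with 2 wild-type (wt) samples and the *Kdm6a* knockout (KO) clones ΔE1, ΔE3 and ΔP4. The male CB cells came from the reciprocal cross, with 2 wt samples and 3 KO clones, ΔP2.1, ΔE2.5 and ΔE2.7. A further group held 2 wt samples of female BC cells. ΔE clones lack the region between exons 2 and 4 of *Kdm6a*, the X-linked gene of a histone H3K27 demethylase, and ΔP clones lack its promoter region. Per the study, ΔE1 and ΔE3 derived from the same editing event. Both also carry an off-target deletion of *Map3k15*, *Pdha1* and part of *Sh3kbp1*, which the other KO clones do not show. Any part of this deletion in the levels of ΔE1 and ΔE3 was not tested. The wt CB line carries, per the study, an actin-GFP transgene that cannot be told apart from the cross in a comparison of the wt lines. The cells were grown on mouse embryonic fibroblast feeders in serum with LIF, and feeders were depleted before RNA extraction. Each wt group is 1 cell line, so a difference between crosses cannot be told apart from a difference between lines.

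Levels are given as TPM, a length-corrected share of all transcripts, computed from the fragments assigned to each gene and the length of its transcript. Samples held 68457338 to 89070402 fragments in the BC cross and 49975599 to 53407103 in the CB cross. *Kdm6a* was at 49.8 and 51.3 TPM in male BC wt and at 51.0 and 51.7 TPM in CB wt. It was at 11.6, 13.5 and 0.044 TPM in ΔE1, ΔE3 and ΔP4, and at 2.07, 7.28 and 0.036 TPM in ΔE2.5, ΔE2.7 and ΔP2.1. All 6 clones were thus below the wt samples of their cross, the ΔP clones by more than the ΔE clones. Per the study, the low RNA level left in ΔE clones is of exons downstream of the deletion. The study also states that loss of the protein was verified in its KO clones, and its methods describe Western blots of ΔE1 and ΔE3.

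The primitive streak is the site of the gastrulating epiblast where cells become mesoderm and definitive endoderm. WNT3 and Nodal signals act on the epiblast there, and the T-box factors EOMES and T (brachyury) are among the first genes to respond. EOMES, MIXL1, GSC and LHX1 belong to the anterior streak and endoderm programme, T and EVX1 to the more posterior streak, and MESP1 marks nascent and cardiac mesoderm. FGF8 is a secreted growth factor needed for cells to leave the streak, and CER1 is a secreted antagonist of Nodal, BMP and WNT. Cultured ES cells in serum can show low and uneven levels of several of these genes.

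The guide sequences are shown because they define which part of *Kdm6a* each clone lacks. They are written 5′ to 3′ with the adjacent PAM, the motif Cas9 needs, in capitals.
ΔE left: gaaacctcacgaacccgaaaAGG
ΔE right: tagcattatctgcataccagAGG
ΔP left: ggacactgcatgtttgatggAGG
ΔP right: agctacatactccaaaggagAGG
On GRCm38 (mm10) the ΔE guides lie at chrX:18163390-18163409, in the coding part of exon 2, and at chrX:18208733-18208752, where 17 of the 20 bases fall in coding exon 4. The ΔP guides lie at chrX:18160528-18160547, which is 2028 bases before the annotated start of *Kdm6a*, and at chrX:18164295-18164314, which is inside the gene, in no exon of that transcript, and 1720 bases after its start. Reads of the 10 genes themselves can be told apart by sequence. The longest run of bases shared by the coding sequences of any pair of them was 13 bases (*Eomes* and *Fgf8*), and that shared by the T-box genes *Eomes* and *T* was 12 bases, against a read length of 75 bases.
*Eomes* and *Fgf8*: ccgcaagggctcc
*Eomes* and *T*: cccactggatga
*Eomes* overlaps the antisense gene *Gm33460* and *Evx1* overlaps the antisense gene *Evx1os*, and the library kit did not mark strand, so reads from these overlaps cannot be told apart. On GRCm38, *Eomes* spans chr9:118478212-118486132, *T* chr17:8434423-8442496, *Mixl1* chr1:180693043-180697034, *Gsc* chr12:104471209-104473330 and *Mesp1* chr7:79792241-79793788. *Evx1* spans chr6:52313498-52318378, *Wnt3* chr11:103774150-103817957, *Cer1* chr4:82881751-82885148, *Lhx1* chr11:84518284-84525535 and *Fgf8* chr19:45736798-45742915.

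In wt male cells, these genes were far higher in the CB line than in the BC line. Of the 10 genes, 9 exceeded 1 TPM in CB wt and 6 in BC wt, and their summed level was 304 and 305 TPM in the CB wt samples against 29.3 and 31.6 TPM in the BC wt samples. The secreted factors *Cer1* and *Fgf8* had the largest ratios of the 10 genes, followed by *T* and *Wnt3*. *Fgf8* was at 3.34 and 4.52 TPM in BC wt and at 83.6 and 87.1 TPM in CB wt, and *Wnt3* was at 2.39 and 2.99 TPM in BC wt and at 32.3 and 32.2 TPM in CB wt. The antagonist *Cer1* was at 0.533 and 0.597 TPM in BC wt and at 13.8 and 12.6 TPM in CB wt. For each of these 3 genes the CB samples lay above the BC samples with no overlap, and the group means differed by 21.7-fold for *Fgf8*, by 23.3-fold for *Cer1* and by 12.01-fold for *Wnt3*. The share of all genes without overlap between the wt lines was not determined.

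Of the T-box factors, *T* was at 8.66 and 7.89 TPM in BC wt and at 119 and 117 TPM in CB wt, a ratio of means of 14.3. *Eomes*, the most abundant of the 10 genes in BC wt, was at 9.66 and 10.1 TPM there and at 32.0 TPM in both CB wt samples, a ratio of 3.25. The T-box genes thus differed in how far apart the lines were, and *T* was below *Eomes* in BC wt but above it in CB wt. Among the homeobox genes, *Mixl1* was at 2.48 and 2.62 TPM in BC wt and at 11.5 and 11.6 TPM in CB wt, and *Gsc* was at 0.836 and 1.46 TPM against 6.75 and 6.57 TPM. *Evx1* was at 0.414 and 0.492 TPM in BC wt and at 2.42 TPM in both CB wt samples, and *Lhx1* was at 0.362 and 0.433 TPM against 2.83 and 2.46 TPM. The CB samples were above the BC samples in all 4. *Mesp1* was the exception, at 0.571 and 0.543 TPM in BC wt and at 0.417 and 0.499 TPM in CB wt, or 10 to 22 fragments a sample.

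In the edgeR quasi-likelihood test on the counts of the 4 wt samples, calls needed an FDR (p adjusted by Benjamini-Hochberg over all genes tested) under 0.05 with a difference of 1.5-fold or more. Of the 9 genes tested, 9 were called higher in CB, against 19.8% of all 13828 genes tested called in that direction. *Evx1*, *Cer1* and *Lhx1* entered the test only through their CB level, and *Mesp1* was not above 1 TPM in these samples and was not tested. The log2 fold changes were 4.47 for *Cer1* (SE 0.13), 4.37 for *Fgf8* (SE 0.12), 3.77 for *T* (SE 0.062) and 3.51 for *Wnt3* (SE 0.10), with adjusted p from 4.3e-07 to 1.3e-06 by edgeR. They were 2.66 for *Lhx1* (SE 0.16), 2.45 for *Gsc* (SE 0.23), 2.34 for *Evx1* (SE 0.17), 2.11 for *Mixl1* (SE 0.089) and 1.63 for *Eomes* (SE 0.057). The errors depend on the spread used. When the spread was estimated over all 12 samples, KO clones included, 6 of the 9 were called, against 16.5% of all genes in the same direction, and the adjusted p was 0.051 for *Gsc*, 0.086 for *Mixl1* and 0.11 for *Lhx1* by edgeR. The CB wt samples resembled each other closely. Their counts differed beyond the 95% point of a chi-square test for 12.7% of genes and for 0 of the 10 genes described here, against 44.1% of genes in the male BC wt pair. The labels do not say whether the CB wt samples came from separate cultures, and if they did not, the standard errors above cover technical spread alone for that line. With both averaged to 1 sample, chosen after seeing the data, the SE for *Eomes* was 0.10 in place of 0.057, and 9 of the 9 genes were called.

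**Figure D1:**
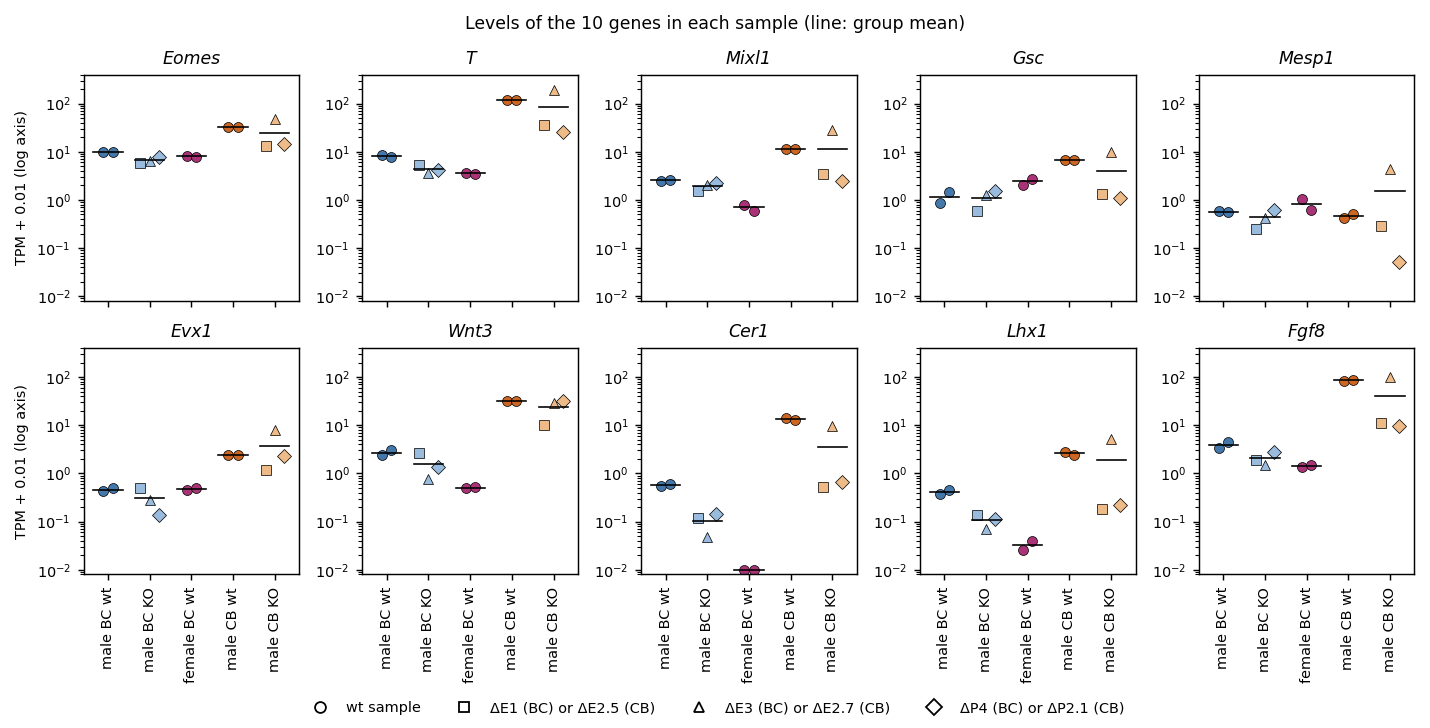
Level of each of the 10 genes in the 12 samples, as TPM + 0.01 on a log axis, by group, with circles for wt samples, squares, triangles and diamonds for the KO clones and a line at the group mean. The CB wt circles lie above the BC wt circles for 9 genes, *Mesp1* being the exception, and in CB KO the triangle (ΔE2.7) stands apart from the square and diamond for most genes.

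**Figure D2:**
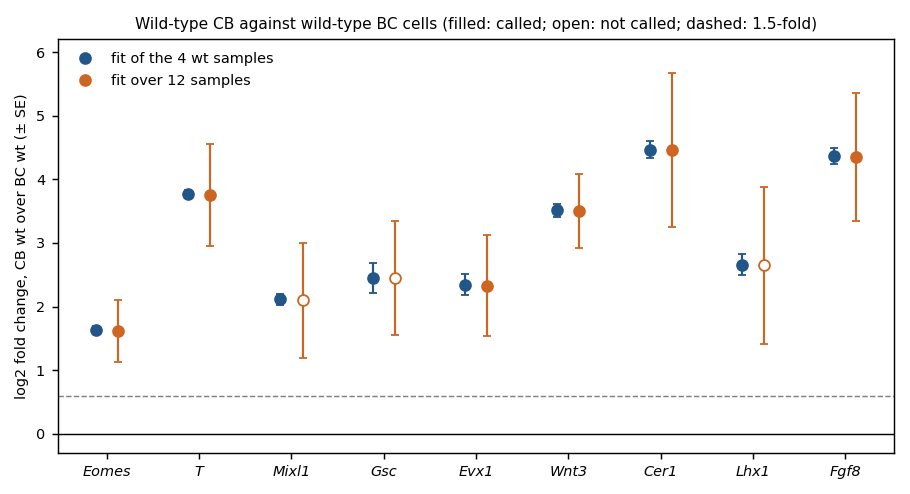
Log2 fold change of CB wt over BC wt with its standard error for the 9 genes tested, from the edgeR fit of the 4 wt samples and from the fit over 12 samples. Estimates are nearly the same in both fits, from 1.6 for *Eomes* to 4.5 for *Cer1*, while the errors are wider over 12 samples, where *Mixl1*, *Gsc* and *Lhx1* are not called (open points).

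In the CB cross, the question was whether cells without KDM6A keep this level, and the 3 KO clones gave different answers. ΔE2.5 and ΔP2.1 were far below wt for most of the genes, while ΔE2.7 was above wt for 8 of the 10. The 10 genes summed to 76.9 TPM in ΔE2.5 and to 88.8 TPM in ΔP2.1, but to 439 TPM in ΔE2.7, against 304 and 305 TPM in wt. Among the secreted factors, *Fgf8* was at 11.2 TPM in ΔE2.5 and 9.63 TPM in ΔP2.1, or 13.1% and 11.3% of the wt mean, but at 102 TPM in ΔE2.7. *Cer1* was at 0.519 TPM in ΔE2.5 and 0.653 TPM in ΔP2.1, or 3.94% and 4.96% of the wt mean, and at 9.47 TPM in ΔE2.7. *Wnt3* followed another pattern, with 10.3 TPM in ΔE2.5 but 32.0 TPM in ΔP2.1 and 28.6 TPM in ΔE2.7, against a wt mean of 32.3 TPM. *Wnt3* was thus low in ΔE2.5 alone among the 3 clones, whereas *Fgf8* and *Cer1* were low in ΔE2.5 and ΔP2.1.

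The T-box factors showed the same split between clones. *T* was at 35.2 and 26.0 TPM in ΔE2.5 and ΔP2.1 and at 196 TPM in ΔE2.7, and *Eomes* was at 13.4, 14.5 and 46.9 TPM in the same order. The wt samples, at 117 to 119 TPM for *T* and at 32.0 TPM for *Eomes*, lay between the clones. The homeobox genes *Mixl1*, *Gsc* and *Lhx1* were likewise low in ΔE2.5 and ΔP2.1 and high in ΔE2.7. *Mixl1* was at 3.43 and 2.48 TPM in ΔE2.5 and ΔP2.1 and at 28.8 TPM in ΔE2.7, and *Gsc* was at 1.31 and 1.07 TPM against 9.68 TPM. *Lhx1* was at 0.170 TPM (13 fragments) in ΔE2.5 and 0.211 TPM (15 fragments) in ΔP2.1, against 5.21 TPM (387 fragments) in ΔE2.7. *Evx1* was at 1.15 TPM in ΔE2.5, at 2.24 TPM in ΔP2.1, where wt was at 2.42 TPM, and at 7.83 TPM in ΔE2.7. *Mesp1* was near the limit of detection outside ΔE2.7, with 107 fragments (4.35 TPM) there, 7 fragments in ΔE2.5, 1 fragment in ΔP2.1 and 10 and 12 fragments in the wt samples.

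Since 1 clone has no replicate, each clone was compared with the wt mean of its cross as a difference on log2(TPM + 0.1), without a test. In ΔE2.5, 9 of the 10 genes were lower than wt by at least 1.5-fold and 0 were higher, against 14% and 5.45% of all 13801 genes above 1 TPM. In ΔP2.1, 8 were lower and 0 were higher, against 9.42% and 3.56% of all genes. In ΔE2.7, 0 were lower and 5 were higher, against 12.2% and 5.77% of all genes, the 5 being *T*, *Mixl1*, *Mesp1*, *Evx1* and *Lhx1*. In TPM, all 10 genes were below both wt samples in ΔE2.5 and in ΔP2.1, and 8 of 10 were above both in ΔE2.7, where *Wnt3* and *Cer1* were below both. *Wnt3* in ΔP2.1 was at 99.2% of the wt mean. With TMM normalization, 9 genes were below both wt samples and 1 was above both in that clone. The share of all genes below or above both wt samples was not determined. *Mesp1* exceeded 1 TPM in this cross only through ΔE2.7. The clones with the lowest and the highest summed level are both exonic deletions, and any part of the type of deletion in these levels was not tested. *Kdm6a* itself was higher in ΔE2.7 than in ΔE2.5 by the values given above, and any part of this in the levels of the 10 genes was not tested. In bulk RNA, fewer cells that express a gene and less RNA in each cell cannot be told apart.

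**Figure D3:**
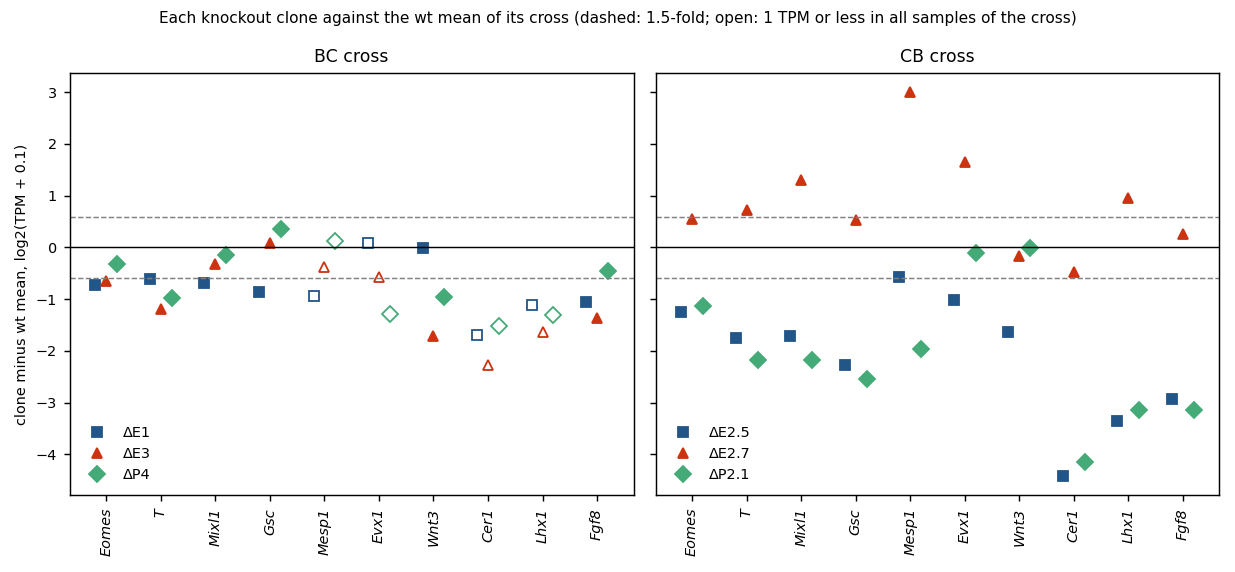
Difference of each KO clone from the wt mean of its cross on log2(TPM + 0.1) for the 10 genes, with dashed lines at 1.5-fold and open symbols for genes that did not exceed 1 TPM in any male sample of the cross. In CB, ΔE2.5 and ΔP2.1 reach -4.42 and -4.14 for *Cer1* while ΔE2.7 reaches 2.99 for *Mesp1*, and in BC the differences lie between -2.28 and 0.35.

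With the 3 CB KO clones as replicates, no difference from wt passed the test. Of the 10 genes tested in CB KO against wt, 0 were called by edgeR and 0 had an unadjusted p under 0.05, and 0 of 13801 genes were called (0%), with 2832 at an unadjusted p under 0.05. DESeq2 called 501 genes and 0 of the 9 that it gave an adjusted p. The log2 fold changes were -1.80 for *Cer1* (SE 1.198, adjusted p = 0.42 by edgeR), -0.97 for *Fgf8* (SE 1.05), -0.38 for *T* (SE 0.88) and -0.28 for *Eomes* (SE 0.58). Each of these errors was larger than that of the same gene between the wt lines. Without ΔE2.7, 7 of the 10 genes were lower in KO with an unadjusted p under 0.05, against 12.8% of all genes, and 0 were called. The log2 fold changes were then -4.42 for *Cer1* (SE 0.19), -3.72 for *Lhx1* (SE 0.23), -2.97 for *Fgf8* (SE 0.12), -2.42 for *Gsc* (SE 0.20), -1.90 for *Mixl1* (SE 0.21), -1.88 for *T* (SE 0.17) and -1.14 for *Eomes* (SE 0.079). The adjusted p of these 7 genes lay between 0.079 and 0.10 by edgeR. Leaving out this clone was a choice among 5 samples made with its values known.

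*Mixl1* lies on chromosome 1, where the median gene stood 0.43 above wt on the log2 scale in ΔE2.5 and 0.35 above in ΔE2.7, against -0.066 and -0.086 over all genes. After subtraction of that median, *Mixl1* was at -2.16 in ΔE2.5 and 0.95 in ΔE2.7, so that its order between the clones was the same. In ΔP2.1 the chromosome 1 median was -0.15 and *Mixl1* was at -2.18 before subtraction.

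In the BC cross, where wt levels are low, the KO clones lay mostly below wt. The 10 genes summed to 18.9 and 16.1 TPM in ΔE1 and ΔE3 and to 20.9 TPM in ΔP4, against 29.3 and 31.6 TPM in wt. *Eomes* was at 5.88, 6.28 and 7.83 TPM in ΔE1, ΔE3 and ΔP4, each below the 9.66 and 10.1 TPM of wt. *T* was at 5.38, 3.54 and 4.14 TPM in the same clones, each below the 8.66 and 7.89 TPM of wt. *Fgf8* was at 1.85, 1.47 and 2.83 TPM, each below the 3.34 and 4.52 TPM of wt. For these 3 genes the KO and wt values did not overlap. The share of all genes without such an overlap was not determined. Marker genes of other cells and of pluripotency were read in the same clones. The fibroblast genes summed to 14.7 to 27.9 TPM in BC KO against 36.1 to 38.7 TPM in wt, with 5 of 6 tested at a negative log2 fold change (median -0.78) and 0 called by edgeR (2 at an unadjusted p under 0.05). *Thy1* alone made up 20.55 and 19.65 TPM of the wt sums and 10.3, 7.47 and 14.6 TPM in ΔE1, ΔE3 and ΔP4. The pluripotency markers summed to 7941 to 10900 TPM in BC KO against 8181 to 9464 TPM in wt. Of these 10 markers, 0 were called, and *Nanog*, *Klf4*, *Esrrb*, *Zfp42* and *Tfcp2l1* were higher in KO with an unadjusted p under 0.05, against 6.56% of all genes. The part of either in the levels of the streak genes was not tested.

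The other BC levels were lower or more variable. *Mixl1* was at 1.54, 2.01 and 2.28 TPM, below the 2.48 and 2.62 TPM of wt in all 3 clones. *Wnt3* was at 2.66 TPM in ΔE1, within the wt range of 2.39 to 2.99 TPM, and at 0.750 and 1.33 TPM in ΔE3 and ΔP4. *Gsc* was at 0.585, 1.23 and 1.497 TPM and overlapped the wt range of 0.836 to 1.46 TPM. *Cer1* was read from 28 and 33 fragments in the wt samples and from 6, 2 and 7 fragments in the clones, and *Lhx1* from 42 and 53 fragments against 16, 7 and 12. For *Cer1* and *Lhx1* the clones lay below wt without overlap, at levels of at most 0.132 TPM. For these genes and for *Mixl1*, the share of all genes with every clone below wt was likewise not determined. *Mesp1* was between 0.242 and 0.616 TPM in the clones and *Evx1* between 0.125 and 0.483 TPM, on both sides of wt for *Mesp1* and within or below the wt range for *Evx1*.

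Of the 6 genes tested in BC, 5 in ΔE1, 4 in ΔE3 and 2 in ΔP4 were lower than the wt mean by at least 1.5-fold, against 5.32%, 10.7% and 3.77% of all 13805 genes. With a pseudocount of 1 TPM in place of 0.1 TPM these were 2, 3 and 2 genes, against 3.6%, 8.1% and 2.5% of all genes. In the other direction 0 of the 6 passed the fold in any clone, against 6.28%, 9.58% and 11.7% of all genes. In ΔP4 the 2 genes were *T* and *Wnt3*. In the edgeR test of KO against wt, 0 of the 6 genes were called, as against 0.029% of all genes, and 3 were lower with an unadjusted p under 0.05, against 4.49% of all genes. These 3 were *Eomes*, with a log2 fold change of -0.61 (SE 0.17, adjusted p = 0.35 by edgeR), *T*, with -0.97 (SE 0.24, adjusted p = 0.34), and *Fgf8*, with -0.99 (SE 0.34, adjusted p = 0.39). DESeq2 called 2 of them lower, *Eomes* with an adjusted p of 0.035 and *T* with 0.023, against 0.761% of all genes. The result for *Eomes* and *T* in BC thus depended on the tool, and that for *Fgf8* did not pass with either. ΔE1 and ΔE3 are not independent, and with both averaged to 1 sample edgeR called 0 of the 6 genes, as before, with an unadjusted p of 0.0014 for *T* in place of 0.0051 and of 0.015 for *Wnt3* in place of 0.15. DESeq2 was not run on the averaged samples.

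The KO effect was compared between the crosses with an interaction term. Of the 10 genes tested, 0 were called and 0 had an unadjusted p under 0.05 by edgeR, against 0.0629% of all 14298 genes called. DESeq2 called 0 of the 5 that it gave an adjusted p. Without ΔE2.7, a choice made with its values known, 0 of the 10 genes were called by edgeR. A more negative KO effect in CB than in BC, at an unadjusted p under 0.05, was then found for 7 of the 10, against 1366 of all 14298 genes. With ΔE2.7 kept, the interaction estimate, the CB effect minus the BC effect on the log2 scale, was 0.0055 for *Fgf8* (SE 0.98), 0.57 for *T* (SE 0.99), 0.32 for *Eomes* (SE 0.64) and 0.81 for *Cer1* (SE 1.60). With errors of this size, differences of 1 log2 unit between the crosses were not detectable for *Fgf8*, *T*, *Eomes* and *Cer1*. The same held for the other genes tested, with SE from 0.73 for *Wnt3* to 1.74 for *Mesp1*.

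Female and male wt cells of the BC cross also differed at these genes. *Wnt3* was at 0.485 and 0.504 TPM in the female samples, below the 2.39 and 2.99 TPM of the male samples, and *Mixl1* was at 0.791 and 0.593 TPM, below 2.48 and 2.62 TPM. *T* was at 3.69 and 3.40 TPM in female cells and *Fgf8* at 1.35 and 1.46 TPM, both below the male values. *Cer1* was at 0 fragments in both female samples, which allows up to 0.0505 and 0.0652 TPM when 3 fragments a sample are taken as the limit, so that its male mean was at least 8.67-fold higher. *Lhx1* had 2 and 3 fragments in the female samples. *Gsc* went the other way, at 2.03 and 2.77 TPM in female against 0.836 and 1.46 TPM in male cells, and *Eomes*, at 8.28 and 7.95 TPM, was slightly below the male values.

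The 10 pluripotency markers were read in the same samples, with sums of 17030 and 18270 TPM against 8181 to 9464 TPM in male BC wt, and 6 of the 10 were called higher in female cells, against 24.5% of all genes. Their part in the levels of the streak genes was not tested.

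In the edgeR test, 7 of the 10 genes were above 1 TPM in a sample of this comparison. *Wnt3* (log2 fold change -2.50, SE 0.19), *Mixl1* (-1.92, SE 0.19), *Fgf8* (-1.55, SE 0.21) and *T* (-1.28, SE 0.11) were lower in female cells and *Gsc* (0.98, SE 0.28) was higher, with adjusted p from 4.4e-07 to 0.0083 by edgeR. These are 4 lower and 1 higher of 7, against 19.9% and 24.5% of all 14049 genes, so the share called higher is near the background. *Eomes* had a log2 fold change of -0.34 (SE 0.082, adjusted p = 0.0032 by edgeR), under the 1.5-fold threshold. *Wnt3* and *Mixl1* entered the test through their male level alone, and *Mesp1*, which was not called (log2 fold change 0.54, SE 0.35), through its female level alone. Without female replicate 2, *Gsc* was not called (log2 fold change 0.75), and with the spread estimated over all 12 samples only *Wnt3* was called lower, against 17.7% of all genes.

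The order of the levels differed between the groups. In BC wt it ran from *Eomes* and *T* through *Fgf8*, *Wnt3*, *Mixl1* and *Gsc* to *Cer1*, *Mesp1*, *Evx1* and *Lhx1*, with *Wnt3* and *Mixl1*, *Cer1* and *Mesp1*, and *Evx1* and *Lhx1* overlapping in their samples. In CB wt the order was *T*, *Fgf8*, *Wnt3*, *Eomes*, *Cer1*, *Mixl1*, *Gsc*, *Lhx1*, *Evx1* and *Mesp1*, with no overlap between neighbours in the 2 samples. In CB KO every neighbouring pair overlapped.

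How the genes varied together was described over the 10 male samples as the Pearson correlation of log2(TPM + 1) after centring each cross on its mean. The points share lines, culture and sequencing depth within a cross, the CB clones dominate the spread, and genes are not independent of each other. *Lhx1* went most closely with *Mixl1* (r = 0.98), *Eomes* (r = 0.97) and *T* (r = 0.97), and *Cer1* with *Fgf8* (r = 0.97). *Eomes* and *T* were at r = 0.96. *Wnt3* stood apart, with r of at most 0.56 with any of the others and 0.12 with *Mesp1*.

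Among 14301 genes above 1 TPM, the 3 most alike were listed for each of the 6 genes that exceeded 1 TPM in both crosses. *Eomes* went most with *Rtp4* (r = 0.97), *Lhx1* and *Fgf8*, and *T* with *Tapbpl* (r = 0.97), *Lhx1* and *Ifih1* (r = 0.96). *Rtp4* and *Ifih1* reached only 1.02 and 1.03 TPM in any male sample. *Mixl1* went most with *Lhx1*, *Sprr2a3* (r = 0.97) and *Gsc* (r = 0.95), *Gsc* with *Msantd4* (r = 0.96), *Ldhb* (r = 0.96) and *Mixl1*, and *Fgf8* with *Cxx1c* (r = 0.98), *Cer1* and *H2-T22* (r = 0.97). For *Wnt3* the list was *Rgcc* (r = 0.96), *Acta2* (r = 0.96) and *Lemd2* (r = 0.95). Other genes of the set were thus among the 3 most alike for 5 of the 6, *Wnt3* being the exception.

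SNP fragments gave the share of the BL6 allele, with 95% Wilson intervals that cover counting error only. In CB wt, *T* had 560 BL6 of 1301 SNP fragments (43.0%, 40.4 to 45.8) and 614 of 1355 (45.3%, 42.7 to 48.0). In male BC wt it had 46 of 165 (27.9%, 21.6 to 35.2) and 63 of 162 (38.9%, 31.7 to 46.6). In female BC wt it had 5 of 78 (6.41%, 2.77 to 14.1) and 2 of 53 (3.77%, 1.04 to 12.8), and both female intervals lay below those of all male samples. Fragments labelled BL6 were thus few for *T* in the female line. The autosomal BL6-to-*cast* ratio was 0.835 and 0.837 there, against 1.14 to 1.26 in the male samples. After division by that ratio the female shares were 7.56% and 4.49% and the male BC wt shares 23.8% and 33.9%. Whether the BL6 and *cast* labels are assigned alike in the female and male samples was not tested. Which allele of *T* was low in the female line therefore cannot be told.

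The difference between the wt lines was present on both alleles. In CPM, the SNP fragments scaled to the total fragments of the sample, the BL6 allele of *T* was at 0.569 and 0.755 in BC wt and at 10.9 and 11.9 in CB wt, and the *cast* allele was at 1.47 and 1.19 against 14.4 in both CB wt samples. The ratio of means was 17.3 for the BL6 and 10.9 for the *cast* allele of *T*, 3.87 and 2.62 for *Eomes*, and 11.9 and 11.2 for *Wnt3*. For *Mixl1* it was 3.13 for the BL6 and 8.96 for the *cast* allele. The BL6 share of *Mixl1* was 76.3% and 76.6% in BC wt (29 of 38 and 36 of 47 fragments) and 55.3% and 51.2% in CB wt. The Wilson intervals of these *Mixl1* shares overlapped in 2 of the 4 pairs of samples, from 60.8 to 87.0 and 62.8 to 86.4 against 46.1 to 64.1 and 42.5 to 59.8.

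Among the CB clones, the BL6 share of *T* was 39.4%, 43.3% and 40.9% in ΔE2.5, ΔE2.7 and ΔP2.1, with overlapping intervals, so both alleles were read in the high clone and in the low clones. *Eomes* was at 35.2%, 40.8% and 54.2% in the same clones, and the intervals of ΔE2.5 (27.8 to 43.4) and ΔP2.1 (45.3 to 63.0) did not overlap. *Mixl1* was at 65.0%, 40.5% and 46.7%, and the intervals of ΔE2.5 (49.5 to 77.9) and ΔE2.7 (35.2 to 46.1) did not overlap. The *cast*-biased *Cer1*, at 25.4% and 19.6% in CB wt, was at 14.8% (8.84 to 23.7) in ΔE2.7, with an interval that overlapped both of wt. *Fgf8*, at 48.1% and 48.4% in CB wt, was at 43.7% (36.5 to 51.1) in ΔE2.7, and its interval overlapped those of wt.

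**Figure D4:**
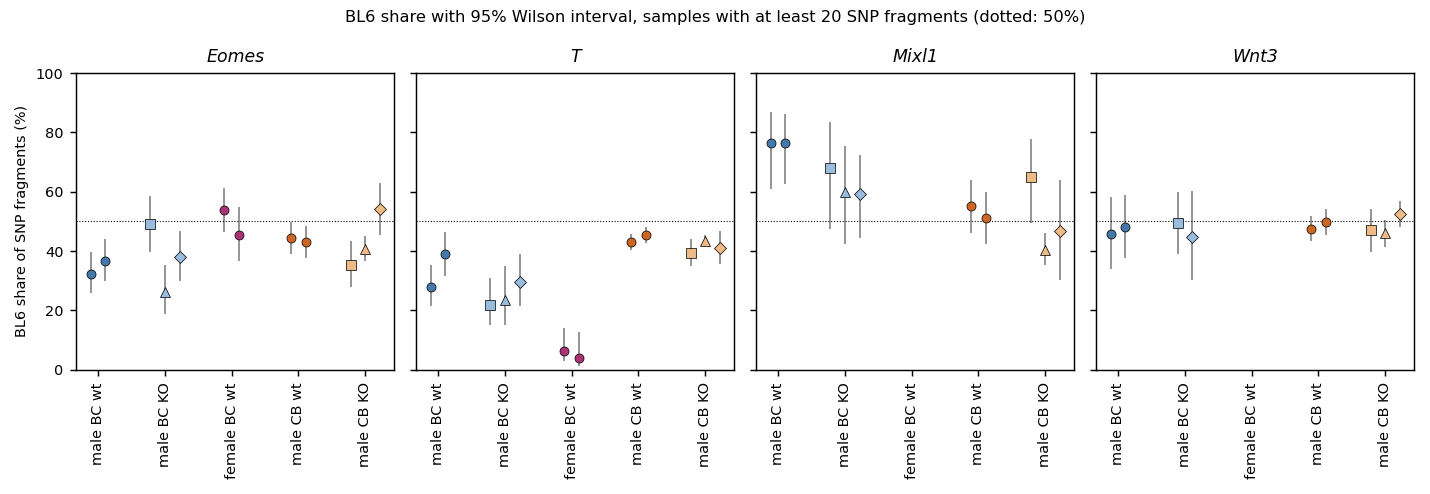
BL6 share of the SNP fragments of *Eomes*, *T*, *Mixl1* and *Wnt3* in percent, with 95% Wilson intervals, for samples with at least 20 SNP fragments, by group and with the same symbols for clones as in the plot of levels. By the allele labels, *T* is at 6.41% and 3.77% in female BC wt, below all male samples, and *Wnt3* lies between 44.7% and 52.5% in the samples shown.

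The signals that act upstream of these genes were tested from lists of other genes of the pathway. Of the 26 tested genes that encode Nodal, BMP, WNT and FGF ligands, receptors and transducers, 0 were called by edgeR in BC KO and 0 in CB KO (4 and 7 at an unadjusted p under 0.05), against 11% and 20.5% of all genes at that p. Between the wt lines 7 were called higher and 2 lower in CB, against 19.8% and 14.7% of all genes, so the share called higher is near the background. The median log2 fold change was -0.031 in BC KO, -0.15 in CB KO and 0.19 between the wt lines, against 0.010, 0.0091 and -0.0059 over all genes tested. *Foxh1*, the SMAD partner of Nodal signalling, had the lowest p of the list in BC KO, with 141 and 132 TPM in wt and 68.8, 46.0 and 75.5 TPM in ΔE1, ΔE3 and ΔP4 (log2 fold change -1.15, SE 0.20, adjusted p = 0.28 by edgeR). *Foxh1* was at 180 and 177 TPM in CB wt and at 136, 133 and 150 TPM in the CB clones. *Porcn*, which lipidates WNT ligands, was at 0.70 (SE 0.19) and *Gdf1*, a Nodal partner, at -0.65 (SE 0.23) in BC KO, and neither was called. In CB KO the genes with the lowest p were the WNT co-receptors *Lrp5*, at -0.32 (SE 0.066), and *Lrp6*, at -0.31 (SE 0.071), and *Gdf1*, at 0.61 (SE 0.15), with adjusted p from 0.14 to 0.16 by edgeR.

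Of the antagonists and feedback targets of the same signals, 20 were tested in BC KO and 21 in CB KO and 0 were called in each by edgeR (2 and 4 at an unadjusted p under 0.05), near the 11% and 20.5% of all genes. Between the wt lines 6 were called higher and 5 lower in CB, against 19.8% and 14.7% of all genes, and *Dkk1*, 1 of the 6, entered the test only through its CB level. In BC KO the genes with the lowest p were *Id1*, a BMP target (-0.49, SE 0.11), *Lef1*, a WNT effector (-0.85, SE 0.28), and *Notum*, a WNT inhibitor (-0.64, SE 0.30). In CB KO they included *Dusp6*, an ERK feedback gene (-0.58, SE 0.10), and *Notum* (0.67, SE 0.17), with adjusted p of 0.13 and 0.16 by edgeR. The WNT targets *Sp5* and *Axin2*, singled out after their values were seen, were at 1.53 and 1.27 TPM and at 4.39 and 4.06 TPM in BC wt, against 31.8 and 34.3 TPM and 28.2 and 27.1 TPM in CB wt. In ΔE2.5, ΔE2.7 and ΔP2.1, *Sp5* was at 7.91, 39.9 and 17.3 TPM and *Axin2* at 7.45, 21.0 and 16.3 TPM, so that ΔE2.7 was the highest of the 3 for both. Other WNT readouts of the list were ordered differently. *Lef1* was lowest in ΔE2.7, at 69.7, 32.8 and 53.1 TPM in the same clones, and had a log2 fold change of -0.51 between the wt lines, and *Notum* was called lower in CB wt (-0.79). The log2 fold change between the wt lines was 4.49 for *Sp5* (SE 0.10) and 2.64 for *Axin2* (SE 0.062), with adjusted p of 6.4e-07 and 7.3e-07 by edgeR.

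Later mesoderm genes were called higher in CB wt than in BC wt for 10 of 15 tested and lower for 1, with a median log2 fold change of 1.22, against 19.8% and 14.7% of all genes. *Aplnr*, *Kdr* and *Pdgfra* are among the 10 and entered the test, and so the median, only through their CB level. In the KO comparisons 0 were called by edgeR (4 in BC and 3 in CB at an unadjusted p under 0.05, against 11% and 20.5% of all genes). In CB KO the lowest p values were those of *Cdx4*, a caudal homeobox gene (7.71 and 7.25 TPM in wt, 2.76, 2.19 and 2.73 TPM in the clones), *Wnt8a*, a ligand of the streak (47.4 and 42.3 TPM in wt, 21.2, 32.1 and 16.0 TPM in the clones), and *Fgf3* (log2 fold change 0.86, SE 0.31). The log2 fold change was -1.47 for *Cdx4* (SE 0.18, adjusted p = 0.11 by edgeR) and -0.88 for *Wnt8a* (SE 0.30, adjusted p = 0.20). In TPM, *Cdx4* and *Wnt8a* were below both wt samples in all 3 CB clones, ΔE2.7 included, as was *Cer1*. *Wnt3* was too, but in ΔP2.1 it was at 99.2% of the wt mean and so hardly differed from wt there. The other 8 of the 10 genes were not below both in all 3 clones. The share of all genes below both wt samples in all 3 clones was not determined. In BC KO the lowest p values were those of *Tbx3* (1.29, SE 0.31), *Foxc1* (0.81, SE 0.29) and *Apln* (-0.63, SE 0.26), and none was called.

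Of the definitive and anterior endoderm genes, 4 of 11 tested were called higher and 0 lower in CB wt than in BC wt, against 19.8% and 14.7% of all genes, and *Frzb*, *Gata6* and *Sox17*, 3 of these 4, entered the test only through their CB level. In either KO comparison 0 were called by edgeR (1 in BC and 2 in CB at an unadjusted p under 0.05, against 11% and 20.5% of all genes). *Foxa2*, a pioneer factor of endoderm, was at 2.63 and 2.71 TPM in BC wt and at 15.9 TPM in both CB wt samples. In ΔE2.5, ΔE2.7 and ΔP2.1 it was at 5.07, 7.64 and 2.16 TPM, below wt in each (log2 fold change -1.60, SE 0.49, adjusted p = 0.18 by edgeR), and in BC KO it was at 6.43, 3.85 and 3.62 TPM, above wt in each (0.76, SE 0.33, adjusted p = 0.45). *Otx2* and *Hhex* in CB KO, at 0.30 (SE 0.10) and -0.31 (SE 0.19), and *Gata4* and *Hhex* in BC KO, at 0.62 (SE 0.24) and 0.43 (SE 0.23), were not called.

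Markers of other cells were read in the same samples. The 10 pluripotency markers were all above 1 TPM in every group. Their summed level was 8181 to 9464 TPM in male BC wt, 6749 to 6838 TPM in CB wt and 7179 to 7757 TPM in the CB clones. Between the wt lines 9 of the 10 had a negative log2 fold change (median -0.47, against -0.0059 over all genes). Of the 10, 3 were called lower in CB, *Sox2*, *Esrrb* and *Zfp42*, and 0 higher, against 14.7% and 19.8% of all genes. The summed level of the 10 fibroblast genes, as a measure of feeders, was 36.1 to 38.7 TPM in male BC wt and 90.4 to 96.6 TPM in CB wt. Of these sums, *Thy1* made up 20.55 and 19.65 TPM in male BC wt and 14.4 and 13.0 TPM in CB wt. In the clones ΔP2.1, ΔE2.5 and ΔE2.7 it was 142, 32.9 and 48.0 TPM. The 10 primitive and visceral endoderm genes summed to 33.8 to 34.1 TPM in male BC wt, 58.2 to 59.8 TPM in CB wt and 36.4 to 44.7 TPM in the CB clones. In this list *Ttr* was at 0 in every group and *Afp* did not exceed 0.051 TPM in any sample. *Dab2*, *Amn* and *Gata4* were above 1 TPM in every sample. Of the 10 primitive and visceral endoderm genes, 5 were above 1 TPM in BC wt and 8 in CB wt, as were 6 and 8 of the fibroblast genes. The 7 trophoblast genes summed to 12.4 to 14.6 TPM in BC wt and 40.8 to 41.3 TPM in CB wt, with 3 and 4 above 1 TPM and *Tpbpa* and *Prl3d1* at 0 in both, and to 27.7, 45.5 and 27.1 TPM in ΔE2.5, ΔE2.7 and ΔP2.1. The 7 neural progenitor genes summed to 36.2 to 41.0 TPM in BC wt, 99.8 to 102 TPM in CB wt and 89.3, 39.1 and 102 TPM in these clones, ΔE2.7 being the lowest. *Nes* alone made up 24.2 and 20.2 TPM in BC wt, 96.2 and 93.4 TPM in CB wt and 71.5, 34.1 and 90.2 TPM in these clones. Of the 4 neural genes tested between the wt lines, 2 were called lower in CB, *Sox1* and *Pax6*, against 14.7% of all genes. *Nes* and *Zic1* were called higher, against 19.8% of all genes, and *Zic1* entered the test only through its CB level. Of the neural genes, 3 were above 1 TPM in BC wt and 4 in CB wt. The female samples held 72.8 to 73.7 TPM of fibroblast genes, of which *Thy1* alone made up 67.4 and 66.3 TPM, and 4 of the 6 fibroblast genes tested were called lower in female cells and 1, *Thy1*, higher. Neural genes summed to 19.3 to 19.5 TPM in the female samples. The part of any of these in the levels of the 10 genes was not tested.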

How the data were processed

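RNA-seq of 12 samples was analysed by cross, sex and genotype, as labelled. The authors deposited expected count values per gene, estimated fragments mapped to the BL6 genome, the pseudo-*cast* genome or either, and fragments with BL6 or *cast* SNPs, not normalized. Reads were mapped with TopHat, and with Bowtie2 2.2.5 per the labels, to mm10, keeping unique reads. Counts were rounded. TPM used the longest RefSeq-matched transcript of GENCODE on GRCm38 (23310 of 24346 genes matched by symbol, the median length of 2284 bp for the rest). Genes above 1 TPM in at least 1 sample compared were tested with edgeR 4.0.16 (quasi-likelihood, TMM, Benjamini-Hochberg, FDR under 0.05 and at least 1.5-fold) in R 4.3.3. *Sh3kbp1*, *Map3k15* and *Pdha1* were left out where BC KO entered, as in the study. On simulated counts of 13808 genes for BC KO against wt, edgeR recovered 99.5% of the 200 made to differ (log2 fold change 1.5, dispersion 0.02) and called 7 others, and for CB KO (13801 genes) 99% with 10 others. The dispersion was fixed for all genes and not taken from the KO clones, so these shares do not give the power of the KO tests here. Alternatives included DESeq2 1.42.0, other normalizations, no filter, and leaving out samples. Python 3.11.15, pandas 2.3.3 and scipy 1.17.1 were used. The tests set group differences against the spread between these samples, and do not cover variation between other lines or further editing events.

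The 10 genes and all lists were chosen with earlier results of these data known. Named genes were the 10, the 3 genes of each pathway list with the lowest p in each KO comparison (none was called, and 1 is not reported here), and the 3 genes most alike each eligible member.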

Additional observations from a re-analysis of the deposited data

How the results depend on the processing

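DESeq2 called 2 of the 10 genes in BC KO, and 260 genes in BC KO, 501 in CB KO and 554 for the interaction, against 4, 0 and 9 with edgeR. One fit over 12 samples called 54, 54 and 113 genes, and 1 of the 10 genes in female against male cells in place of 5. Without a filter on level, 14 genes were called for the interaction, with ΔE1 and ΔE3 averaged 23, and with the CB wt samples averaged to 1, chosen after seeing the data, 3. Leaving out each sample gave 1 to 4 genes in BC KO, 0 to 928 in CB KO (928 without ΔP2.1) and 3 to 306 for the interaction (306 without ΔP2.1, 78 without ΔP4).

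Several directions turned without ΔE2.7 or another clone. With each sample left out, the log2 fold change in CB KO ranged from -1.14 to 0.026 for *Eomes* (0.0025 without ΔP2.1), -1.88 to 0.056 for *T*, -1.90 to 0.57 for *Mixl1*, -3.72 to 0.13 for *Lhx1* (0.11 without ΔP2.1), -0.45 to 1.14 for *Evx1* and -1.41 to 2.41 for *Mesp1*, and in BC KO from -0.47 to 0.35 for *Gsc*. The interaction ranged from -1.80 to 1.34 for *Cer1*, -0.53 to 0.64 for *Eomes*, -1.99 to 0.47 for *Fgf8* (-0.24 without BC wt replicate 2, 0.27 without ΔP4), -1.66 to 2.19 for *Lhx1*, -0.97 to 2.85 for *Mesp1*, -1.47 to 0.99 for *Mixl1* and -0.92 to 1.01 for *T*. For *Fgf8* it was also -0.012 with the BL6 genome alone and -0.11 with ΔE1 and ΔE3 averaged. With a pseudocount of 1 TPM, 2 genes in place of 5 were lower in ΔE1. Adjusted BL6 shares of *T* left the raw interval at 39.0% and 41.2% in CB wt, 34.0% in ΔE2.5 and 40.2% in ΔE2.7. With the replicate number as a block, 9 of the 9 genes were called between the wt lines and 5 of the 7 in female against male cells, as without it (4825 and 6283 genes in all, against 4773 and 6247), and the 2 numbers of a group share nothing else in the labels. The cause of these shifts was not tested. Genes with few fragments, *Mesp1*, *Cer1* and *Lhx1* in BC and in the low CB clones, are limited by depth.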
